A study of Mus musculus with 38 samples.

Results

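The genes followed here are 7 that mark or drive the plasma cell, Jchain, Mzb1, Xbp1, Prdm1, Irf4, Tnfrsf17 and Sdc1. They were taken by name from the 55487 genes of the deposited tables, and all 7 were found in the table of 34 mouse omental tumors and in that of 4 cell line libraries. The tumors came from a study of chemotherapy in 2 syngeneic models of high-grade serous ovarian cancer. Cells of the line 60577 were injected into the peritoneum of female FVB mice, and cells of the line HGS2 into female C57BL/6J mice, at an age of 8 to 9 weeks. Each model rests on 1 line in 1 strain, so line and host strain cannot be told apart. Treated mice received carboplatin (20 mg/kg) with paclitaxel (10 mg/kg) in 3 weekly doses, from day 21 after injection for 60577 and from day 49 for HGS2, and controls received vehicle. Tumors were taken 1 day (TP1), 7 days (TP2) or 21 days (TP3) after the last dose. There was no TP3 control group, so TP3 treated tumors were set against TP2 controls and carry the extra time as well as the drugs. The 60577 groups held 3 TP1 control, 3 TP1 treated, 3 TP2 control, 4 TP2 treated and 4 TP3 treated tumors. The HGS2 groups held 3, 3, 4, 3 and 4 tumors in the same order, and each cell line had 2 untreated cultured libraries. HGS2 TP3 treated tumor 1 was kept out of the comparisons because the per-tumor scores of the publication leave it out, but its levels are given.

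Plasma cells are the antibody-secreting end stage of the B cell lineage. A B cell that commits to this fate switches on Irf4 and Prdm1, which close down the genes of B cell identity, and Xbp1, which expands the endoplasmic reticulum for secretion. Jchain joins IgM and IgA into polymers, Mzb1 is a chaperone of immunoglobulin assembly, Tnfrsf17 (BCMA) is a receptor for survival signals, and Sdc1 (CD138) is a surface proteoglycan used to sort plasma cells. Only some of these genes are restricted to the lineage. Irf4 is also used by activated B and T cells and dendritic cells, Prdm1 by T cells and myeloid cells, and Xbp1 and Sdc1 by many secretory and epithelial cells. The omentum holds clusters of B cells within its fat.

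Library totals ran from 17839635 to 49299442 expected counts in the tumors and from 31633121 to 42461995 in the cell lines. Levels below are CPM, the counts of a gene relative to the library total, scaled by the trimmed mean of M values (TMM), with tumors and cell lines scaled apart. Changes are log2 fold changes with standard errors from edgeR's quasi-likelihood test, with p adjusted by the Benjamini-Hochberg method over 16241 tumor genes, and a gene was called when the adjusted p was below 0.05 and the log2 fold change was beyond 1 in either direction. Tnfrsf17 did not reach 1 CPM in 25% of the tumors and was tested only in a fit without that filter, so 6 of the 7 genes entered the main comparisons. RNA of exocrine pancreas stood out in 3 HGS2 tumors, where 7 acinar genes took 4.80% (TP1 control 3), 7.92% (TP2 control 2) and 5.10% (TP3 treated 2) of the counts. The publication plots each tumor as that of an individual mouse, and the p-values measure the spread between these tumors. The cell line libraries are not stated to come from separate cultures.

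In GRCm38 coordinates, Jchain (ENSMUSG00000067149) lies on the minus strand of chromosome 5 at 88519809 to 88527891, Xbp1 (ENSMUSG00000020484) on the plus strand of chromosome 11 at 5520659 to 5525893, and Prdm1 (ENSMUSG00000038151) on the minus strand of chromosome 10 at 44437177 to 44528501. Irf4 (ENSMUSG00000021356) is on the plus strand of chromosome 13 at 30749226 to 30766976, Tnfrsf17 (ENSMUSG00000022496) on the plus strand of chromosome 16 at 11313812 to 11320074, and Sdc1 (ENSMUSG00000020592) on the plus strand of chromosome 12 at 8771323 to 8793715. Mzb1 (ENSMUSG00000024353) shares exon bases with a second gene on its strand, and its counts are uncertain to that extent. The 250 bases before the RefSeq start (GRCm38.p6) were read for 6 of the 7 genes. Those of Jchain, Tnfrsf17 and Irf4 are printed because these genes had their highest group median in the same group of tumors, and capitals mark a match to a searched motif.
Jchain, chr5:88527898-88528147, minus strand: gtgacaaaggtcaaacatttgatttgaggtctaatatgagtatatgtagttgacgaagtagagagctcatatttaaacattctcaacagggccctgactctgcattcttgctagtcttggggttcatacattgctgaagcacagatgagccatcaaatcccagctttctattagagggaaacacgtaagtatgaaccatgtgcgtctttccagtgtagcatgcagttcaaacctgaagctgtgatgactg
Tnfrsf17, chr16:11313559-11313808, plus strand: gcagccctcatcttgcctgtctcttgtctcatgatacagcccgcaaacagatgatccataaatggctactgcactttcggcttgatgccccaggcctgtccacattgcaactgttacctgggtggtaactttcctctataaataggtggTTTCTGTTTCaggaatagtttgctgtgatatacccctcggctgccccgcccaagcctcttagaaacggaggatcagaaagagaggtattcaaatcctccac
Irf4, chr13:30748983-30749232, plus strand: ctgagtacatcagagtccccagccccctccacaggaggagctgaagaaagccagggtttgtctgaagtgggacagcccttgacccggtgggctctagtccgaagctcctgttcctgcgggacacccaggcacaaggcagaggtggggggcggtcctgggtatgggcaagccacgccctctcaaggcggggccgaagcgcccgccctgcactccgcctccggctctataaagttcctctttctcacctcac
The motifs were searched on both strands. The interferon-stimulated response element, which IRF4 and BLIMP-1 (the product of Prdm1) are known to bind, was found once among the 6 genes, in Tnfrsf17, at 101 bases before the start and on the opposite strand, and 2.98% of 32851 mouse windows of this length hold it. The response element and the ETS-IRF composite element can overlap. Neither that composite (2.30% of windows), the octamer ATGCAAAT (1.60%) nor the XBP1 site TGACGTG (1.65%) was present in any of the 6. Xbp1 and Prdm1 each held 1 E-box CAGGTG (17.2% of windows) and 1 ETS core GGAAGT (19.7%). The Prdm1 window, at 44458749 to 44458998, belongs to a RefSeq start inside the locus given above, so its matches do not lie upstream of that locus. The letters G and C made up 42.0% of the Jchain window, 49.2% for Tnfrsf17, 50.4% for Xbp1, 59.2% for Prdm1, 63.6% for Irf4 and 66.0% for Sdc1. Of the 3 printed windows, that of Tnfrsf17 alone held a match.

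The cell lines, which hold no host cells, separated the 7 genes into those that the cancer cells lacked and those that they expressed. Prdm1 and Tnfrsf17 had no counts in the 4 libraries, which allows up to 0.0673 to 0.101 CPM per library at 3 counts. Jchain, Mzb1 and Irf4 had at most 3 counts in any library. Xbp1 was at 90.2 and 73.7 CPM in 60577 cells and at 155 CPM in both HGS2 libraries, and Sdc1 was at 129 and 94.8 CPM in 60577 cells and at 106 and 137 CPM in HGS2 cells. Xbp1 was higher in HGS2 than in 60577 cells by 0.92 ± 0.19 (log2 fold change and SE, n = 2 and 2; adjusted p = 0.031), below the fold limit, and Sdc1 differed by 0.12 ± 0.24 (adjusted p = 0.75), so neither of the 2 genes tested in the lines was called, against 15.9% of 13742 genes (7.55% higher and 8.38% lower in HGS2). By limma-voom and DESeq2 the count was also 0, and 1 of the 2 had an unadjusted p below 0.05 with each tool. The tumor levels of Xbp1 and Sdc1 can thus hold RNA of the cancer cells themselves.

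**Figure D1:**
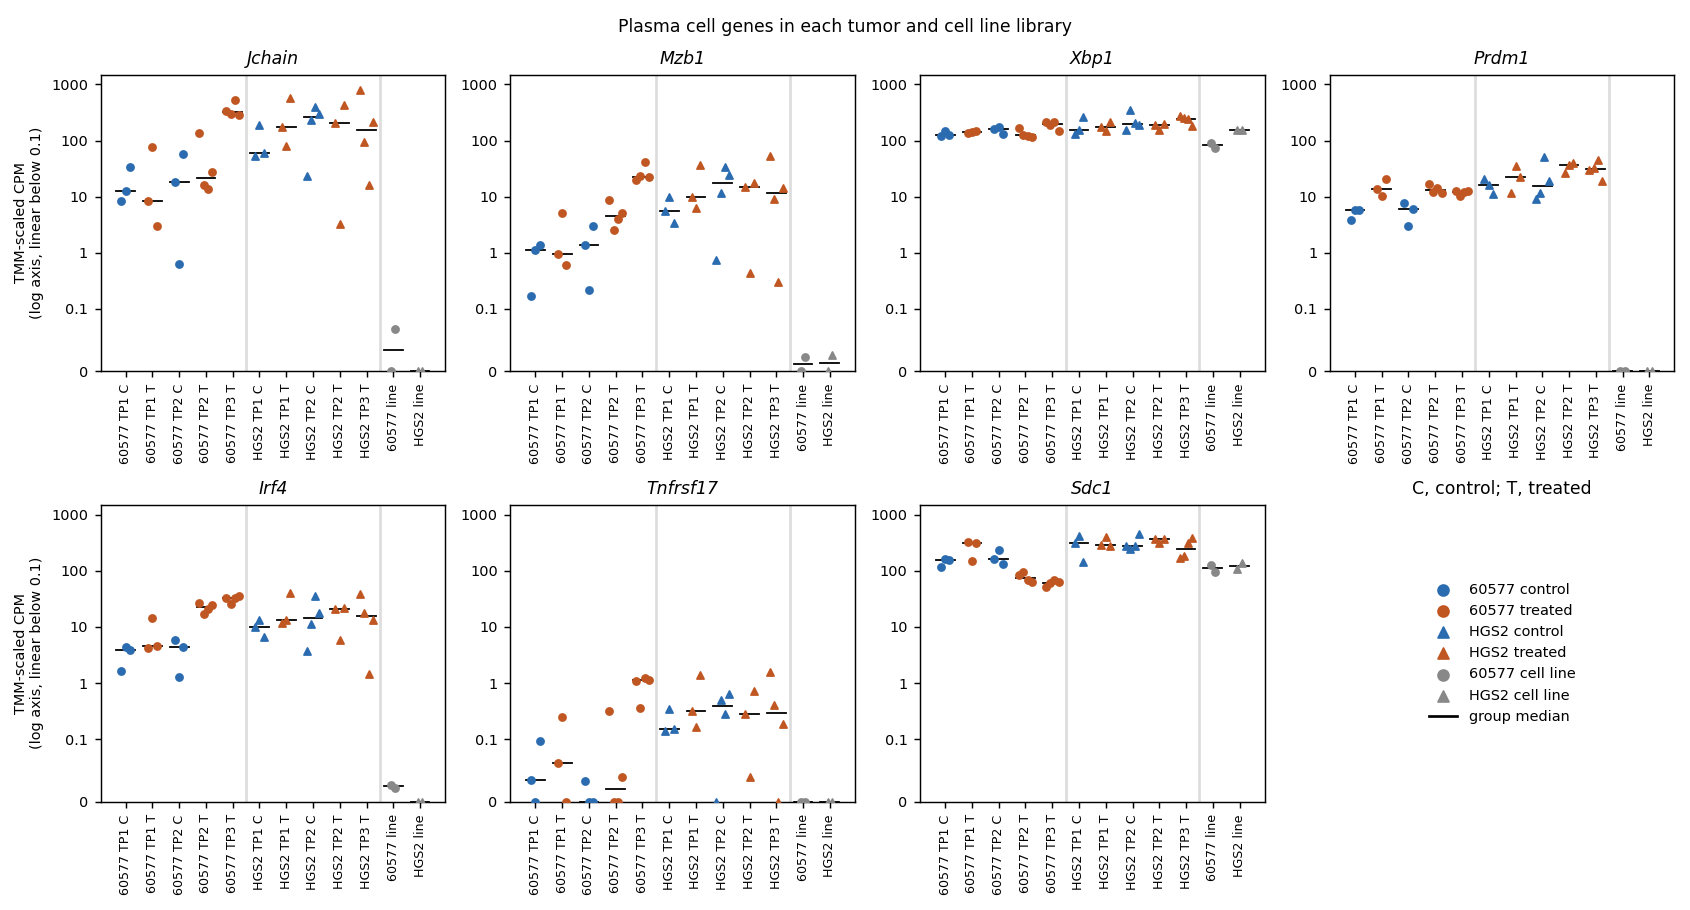
Level of each gene in every library, in TMM-scaled CPM on a log axis that is linear below 0.1, with groups along the horizontal axis (C control, T treated), 1 point per library and a black line at the group median. Jchain, Mzb1 and Tnfrsf17 had their highest group median in 60577 TP3 treated tumors, where Jchain lay between 281 and 524 CPM, whereas Sdc1 had its lowest median there, between 51.2 and 68.7 CPM.

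The secreted-antibody genes Jchain and Mzb1 were higher at TP3 than in TP2 controls in 60577 tumors. Jchain was at 8.24, 12.6 and 33.5 CPM in TP1 controls, at 8.24, 75.9 and 2.98 CPM in TP1 treated tumors, and at 18.4, 0.621 and 56.9 CPM in TP2 controls. In TP2 treated tumors it was at 134, 15.9, 13.9 and 27.1 CPM, and in TP3 treated tumors at 341, 294, 524 and 281 CPM. The 4 TP3 tumors thus stood above the other 13 tumors of the model, whose groups overlapped one another. Between TP3 tumors and TP2 controls alone 57.4% of all genes did not overlap, and the share for pooled groups was not counted. At TP3 against TP2 controls the gene rose by 3.85 ± 1.3 on the log2 scale (14.5-fold, n = 4 and 3; adjusted p = 0.022). Without TP2 control tumor 1 the adjusted p was 0.070, and without TP2 control tumor 3, the control with the most Jchain, the change was 5.25. Between TP2 and TP3 treated tumors the groups did not overlap, a property of 29.0% of all genes. The change of 2.92 ± 1.10 had an adjusted p of 0.051 (0.016 to 0.091 over 6 other settings, and 0.0097 without TP2 treated tumor 1, with a change of 4.30). At TP1 (0.68 ± 1.21, adjusted p = 0.71) and at TP2 (0.93 ± 1.15, adjusted p = 0.50) no difference from controls was detectable within this spread.

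Mzb1, which lies on the minus strand of chromosome 18 at 35647267 to 35649367 in GRCm38, also had its highest values at TP3, at a lower level. It was at 0.173, 1.10 and 1.37 CPM in TP1 controls, at 0.937, 5.19 and 0.619 CPM in TP1 treated tumors, and at 1.37, 0.217 and 2.96 CPM in TP2 controls. It was at 8.69, 2.51, 4.07 and 5.16 CPM in TP2 treated tumors and at 20.2, 23.2, 42.0 and 22.4 CPM in TP3 treated tumors. Each TP3 tumor was above every other 60577 tumor, and the lowest TP2 treated value lay within the TP2 control range. Between TP3 tumors and TP2 controls alone 57.4% of all genes did not overlap, and the share for pooled groups was not counted. The rise at TP3 over TP2 controls was 4.19 ± 0.86 (18.3-fold; adjusted p = 0.000881), and that over TP2 treated tumors was 2.41 ± 0.69 (5.32-fold; adjusted p = 0.018). The second call was lost without TP2 treated tumor 3 (adjusted p = 0.056) and when both models were fitted together (adjusted p = 0.099), and without TP2 control tumor 3 the first change was 5.09. At TP2 against controls the change was 1.78 ± 0.80 (adjusted p = 0.067), but it was called by limma-voom (2.33, adjusted p = 0.034) and by edgeR without TP2 control tumor 3 (2.68, adjusted p = 0.028). At TP1 the change was 1.35 ± 0.87 (adjusted p = 0.26).

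The BCMA gene Tnfrsf17 was near the limit of detection. In 60577 it had 1, 0 and 3 counts in TP1 controls, 2, 7 and 0 in TP1 treated tumors, 1, 0 and 0 in TP2 controls, and 9, 0, 0 and 1 in TP2 treated tumors. In TP3 treated tumors it had 31, 11, 39 and 37 counts, or 1.11, 0.365, 1.26 and 1.12 CPM. A count of 0 allows between 0.0690 and 0.174 CPM at 3 counts, depending on the tumor, and all 4 TP3 tumors were above that. In the fit without a filter on low counts, the TP3 tumors were higher than TP2 treated tumors by 3.32 ± 0.87 (adjusted p = 0.017), and the adjusted p against TP2 controls was 0.0014, with no fold given because those controls held 1 count in all.

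Irf4, the transcription factor at the head of the programme, was higher at TP2 and at TP3 than in TP2 controls. It was at 1.66, 4.37 and 3.94 CPM in TP1 controls and at 4.28, 14.6 and 4.64 CPM in TP1 treated tumors. It was at 5.92, 1.3 and 4.36 CPM in TP2 controls, at 27.0, 17.3, 21 and 24.2 CPM in TP2 treated tumors, and at 33.4, 26.2, 33.5 and 36.0 CPM in TP3 treated tumors. From TP2 on, every treated tumor was above every control of the model. Against TP2 controls alone 50.5% of all genes did not overlap at TP2 and 57.4% at TP3, and the share for pooled groups was not counted. The rise over TP2 controls was 2.53 ± 0.50 at TP2 (5.79-fold; adjusted p = 0.000658) and 3.08 ± 0.51 at TP3 (8.45-fold; adjusted p = 0.000151). At TP1 the change was 1.25 ± 0.51 (adjusted p = 0.072), but it was called by DESeq2 (1.26, adjusted p = 0.031) and by edgeR without TP1 treated tumor 1 (1.54, adjusted p = 0.043). From TP1 to TP2 treated tumors it was 1.5 ± 0.47 (adjusted p = 0.039), and from TP2 to TP3 treated tumors 0.55 ± 0.41 (adjusted p = 0.31). The call from TP1 to TP2 was lost in 4 of the 7 fits that left out a library of either group (TP1 treated tumors 1 and 3, TP2 treated tumors 3 and 4; adjusted p from 0.069 to 0.17) and when both models were fitted together (adjusted p = 0.19), and without TP1 treated tumor 2 the change was 2.31. Differences in timing between genes were not tested.

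Prdm1, which encodes the repressor BLIMP-1, was higher in treated tumors than in controls at TP1 and at TP2, and higher at TP3 than in TP2 controls. It was at 3.81, 5.74 and 5.87 CPM in TP1 controls and at 13.7, 10.1 and 20.4 CPM in TP1 treated tumors. It was at 7.69, 2.95 and 5.96 CPM in TP2 controls, at 16.5, 12, 14.2 and 11.5 CPM in TP2 treated tumors, and at 12.6, 10.2, 12 and 12.8 CPM in TP3 treated tumors. The 11 treated tumors lay between 10.1 and 20.4 CPM, above all 6 controls. In the single comparisons with controls 55.9% (TP1), 50.5% (TP2) and 57.4% (TP3) of all genes did not overlap. The share for these pooled groups was not counted. The rise was 1.53 ± 0.31 at TP1 (2.88-fold; adjusted p = 0.0017), 1.29 ± 0.29 at TP2 (2.44-fold; adjusted p = 0.0018) and 1.12 ± 0.29 at TP3 (2.17-fold; adjusted p = 0.0048). Without TP2 control tumor 2 the last pair came to 0.98 and 0.81, under the fold limit, and the TP3 call was lost when both models were fitted together (1.11, adjusted p = 0.057). T cells also use this gene, and 4 of 5 T cell markers rose at TP1, from sums of 3.81 to 11.4 CPM in controls to 15.4 to 46.8 CPM in treated tumors. The T cell sum was 51.6 to 103 CPM in TP2 treated tumors. Myeloid cells use the gene too, and 1 of 5 macrophage markers was called higher at TP1, at TP2 and at TP3. Over all genes the shares called higher were 9.65%, 14.8% and 14.2%, and 1 of 5 is not far above them. The macrophage sum was 397 to 679 CPM in TP1 controls and 780 to 929 CPM in TP1 treated tumors. At TP2 the sums overlapped, at 335 to 821 CPM in controls and 524 to 1110 CPM in treated tumors. The part of either cell type in the Prdm1 value was not tested. From one treated time point to the next Prdm1 changed by -0.13 ± 0.28 and -0.17 ± 0.26 (adjusted p = 0.76 and 0.62).

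Xbp1 and Sdc1, the members that the tumor cells also expressed, took other courses. Xbp1 was at 119, 150 and 127 CPM in TP1 controls, 135, 140 and 148 CPM in TP1 treated tumors, and 163, 176 and 133 CPM in TP2 controls. It was at 167, 127, 121 and 116 CPM in TP2 treated tumors and at 218, 191, 210 and 149 CPM in TP3 treated tumors. The groups overlapped in each of the 5 comparisons. No Xbp1 change was called, and the nearest to a call was that from TP2 to TP3 treated tumors, 0.55 ± 0.14 (1.47-fold; adjusted p = 0.012), which is under the fold limit. In the same comparison 6 of 7 pancreatic acinar markers rose (3.47% of all genes did), from sums of 6.13 to 19.6 CPM to 56.9 to 388 CPM. At TP2 against controls all 7 fell (9.61% of all genes did), with a median change of -7.03, and Xbp1 was not called. The part of this RNA in the Xbp1 value was not tested. The other 4 changes of Xbp1 ran from -0.26 ± 0.16 (TP2 against controls, adjusted p = 0.16) to 0.30 ± 0.16 (TP3 against TP2 controls, adjusted p = 0.13).

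Sdc1, alone among the 6 genes tested, fell. It was at 116, 160 and 154 CPM in TP1 controls and at 326, 149 and 312 CPM in TP1 treated tumors. It was at 162, 235 and 131 CPM in TP2 controls, at 84.3, 96.4, 67.6 and 62.9 CPM in TP2 treated tumors, and at 51.2, 61.0, 68.7 and 62.3 CPM in TP3 treated tumors. At TP1 the highest values belonged to 2 treated tumors while the third lay within the controls, and from TP2 on all 8 treated tumors were below all 6 controls. Against TP2 controls alone 50.5% of all genes did not overlap at TP2 and 57.4% at TP3, and the share for pooled groups was not counted. The change was 0.88 ± 0.28 at TP1 (adjusted p = 0.023, under the fold limit), -1.19 ± 0.25 at TP2 (adjusted p = 0.0012) and -1.53 ± 0.26 at TP3 (adjusted p = 0.000163). From TP1 to TP2 treated tumors it fell by 1.76 ± 0.26 (3.40-fold; adjusted p = 0.0022). Without TP1 treated tumor 2 the TP1 change was 1.17 and was called, and without TP2 control tumor 2 that at TP2 was -0.92 and was not. At TP3 against TP2 controls the sort marker of plasma cells thus fell while Jchain and Mzb1 rose. From TP2 to TP3 treated tumors Sdc1 changed by -0.34 ± 0.24 (adjusted p = 0.27).

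Counted over the 6 tested genes, 1 was higher and 0 were lower at TP1 against controls, where 15.6% of all genes were called (9.65% higher and 5.96% lower). At TP2, 2 were higher and 1 was lower, against 24.4% of all genes (14.8% higher and 9.61% lower). At TP3 against the same TP2 controls 4 were higher and 1 was lower, against 24.4% (14.2% higher and 10.2% lower). From TP1 to TP2 treated tumors 1 was higher and 1 lower, against 6.02% (3.58% higher and 2.44% lower), and from TP2 to TP3 treated tumors 1 was higher, against 7.87% (3.47% higher and 4.40% lower). The median change of the 6 genes was 1.06 at TP1, 1.11 at TP2 and 2.10 at TP3 against TP2 controls, beside medians of -0.0021, 0.031 and -0.00038 over all tested genes. Groups that did not overlap were common in this model, at 55.9% of all genes for TP1, 50.5% for TP2 and 57.4% for TP3 against controls, and at 27.1% and 29.0% for the later treated time points.

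**Figure D2:**
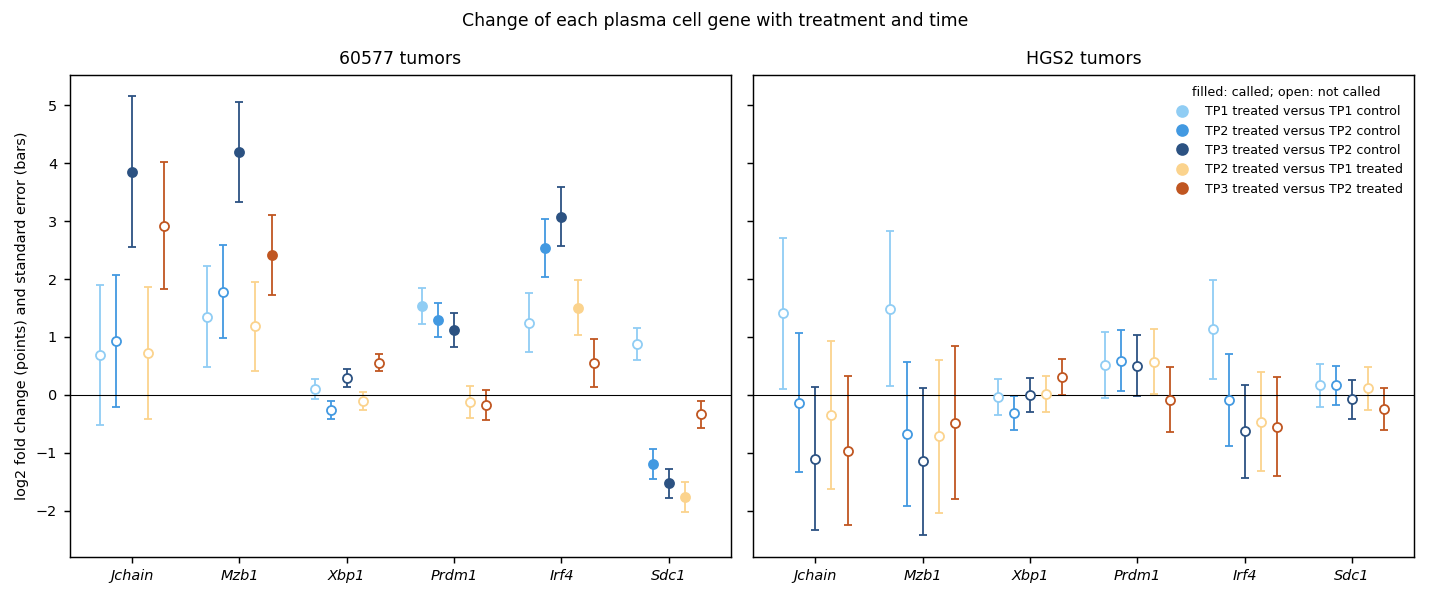
Log2 fold change (points) with its standard error (bars) of the 6 tested genes in 5 comparisons per model, 60577 on the left and HGS2 on the right; filled points were called and open points were not. In 60577 the TP3 changes of Jchain and Mzb1 were 3.85 and 4.19 while Sdc1 was at -1.53, and in HGS2 no point is filled.

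Genes that the plasma cell programme silences rose at TP2 and at TP3. Of all genes, 14.8% were called higher at TP2 and 14.2% at TP3 against TP2 controls, and 3.47% from TP2 to TP3 treated tumors. Of 12 B cell identity genes 11 were tested, and 9 rose at TP2 against controls, among them the complement receptor Cr2 (4.56 ± 0.77, adjusted p = 0.000215), the lineage factor Pax5 (4.19 ± 0.71, adjusted p = 0.000222) and Ms4a1 (3.70 ± 0.80, adjusted p = 0.0013). Their median change was 3.11 at TP2 and 3.80 at TP3 against TP2 controls, where 9 of 11 again rose. From TP2 to TP3 treated tumors 1 of 11 rose (Ebf1, 1.37 ± 0.50, adjusted p = 0.044), and this count was 0 without any 1 of 7 of the 8 tumors (all but TP2 treated tumor 1), 2 by DESeq2 and 4 by limma-voom. In that comparison 4 of 4 adipocyte markers rose and 0 of 5 B cell markers were called. Which cells gave the Ebf1 change was not tested. Of the immunoglobulin constant genes, 2 of 9 were higher at TP2, not far above the share of all genes. These were Iglc1 and Iglc2, whose near-identical sequences make their split uncertain. At TP3 6 of 9 were higher, and 7 of 9 from TP2 to TP3 treated tumors. With both models fitted together the TP2 count was 1 and the last was 2, and the last was 3 without each of TP2 treated tumors 2, 3 and 4 and TP3 treated tumors 2 and 3. Summed over the list, immunoglobulin constant RNA lay between 229 and 1223 CPM at TP2 and between 4015 and 6500 CPM at TP3 in treated tumors. The difference in timing between these lists was not itself tested. Jchain per Cd79b, the gene of the B cell receptor signalling chain Igβ, was 0.458 to 4.04 in TP2 treated tumors and 4.76 to 8.62 in TP3 treated tumors, but it was also 3.58 to 11.7 in TP1 controls and 0.741 to 21.6 in TP2 controls, and this ratio was chosen after the values had been seen and was not tested.

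**Figure D3:**
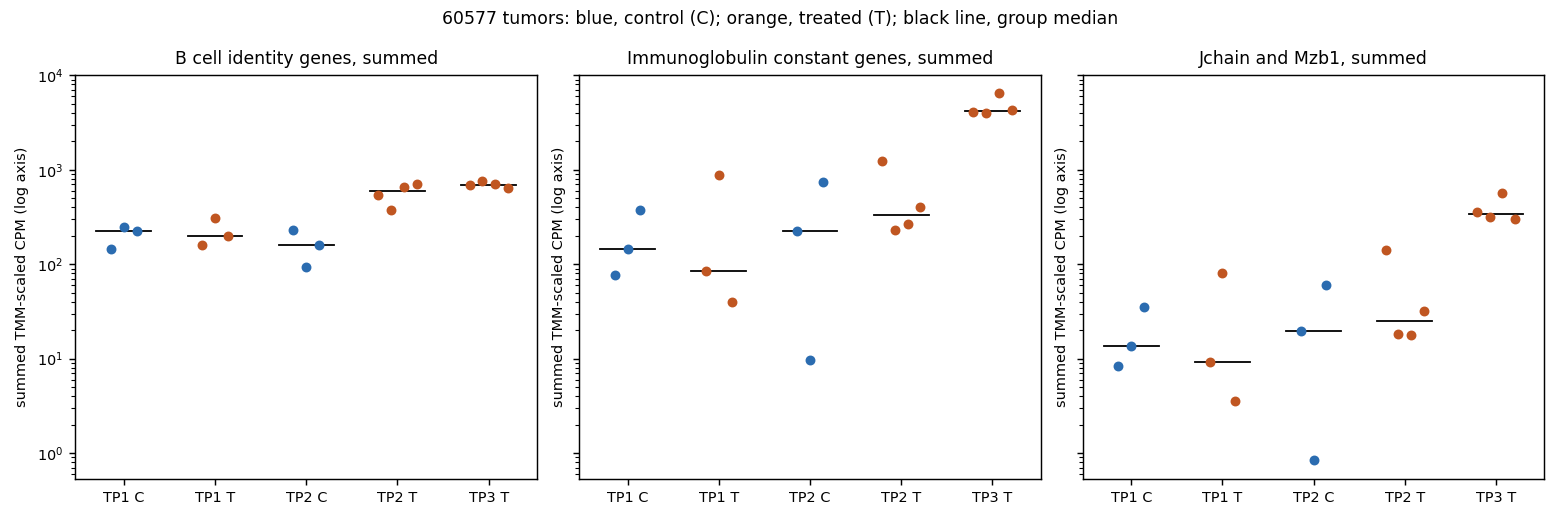
Summed TMM-scaled CPM (shared log axis) of 12 B cell identity genes, 9 immunoglobulin constant genes, and Jchain with Mzb1 in the 60577 tumors, 1 point per tumor, blue for controls and orange for treated, with a black line at the group median. The B cell sum was 378 to 699.5 CPM at TP2 and 639.5 to 758 CPM at TP3 in treated tumors, while the immunoglobulin sum was 229 to 1223 CPM and then 4015 to 6500 CPM.

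Other genes of the plasma cell state and of secretion are set here beside the shares of all genes. Of these, 14.8% were called higher and 9.61% lower at TP2 against controls, and 14.2% higher and 10.2% lower at TP3 against TP2 controls. From TP2 to TP3 treated tumors 3.47% were higher and 4.40% lower. Of 11 plasma cell companion genes, 4 rose and 1 fell at TP2 against controls, the latter being Derl3 (-1.11 ± 0.40, adjusted p = 0.025), which acts in disposal of misfolded proteins. Those that rose were Slamf7 (3.42 ± 0.51, adjusted p = 7.44e-05), the B cell receptor gene Cd79a (3.27 ± 0.76, adjusted p = 0.0021), the octamer coactivator Pou2af1 (2.71 ± 0.70, adjusted p = 0.0042) and Eaf2 (1.3 ± 0.37, adjusted p = 0.0074). From TP2 to TP3 treated tumors 3 of the 11 rose, namely Pou2af1 (1.71 ± 0.58, adjusted p = 0.034), Derl3 (1.61 ± 0.37, adjusted p = 0.0071) and Eaf2 (1.39 ± 0.29, adjusted p = 0.0049), a count that was 0 when both models were fitted together. Of 23 genes of endoplasmic reticulum secretion and the unfolded protein response, 2 fell at TP2, the chaperone Hspa5 (-1.05 ± 0.30, adjusted p = 0.0073) and Pdia4 (-1.05 ± 0.26, adjusted p = 0.0032), and 2 rose from TP2 to TP3, Dnajb9 (1.3 ± 0.30, adjusted p = 0.0068) and Manf (1.01 ± 0.27, adjusted p = 0.014), and the share that fell was near that of all genes. The first count was 6 without TP2 treated tumor 1, 5 without TP2 control tumor 3, 1 without TP2 control tumor 1 or 2 and 0 without TP2 treated tumor 3 or 4, and the second was 8 without TP2 treated tumor 1 and 1 without TP2 treated tumor 3 or 4 or TP3 treated tumor 1 or 3. The list's median was -0.49 at TP2 and 0.66 from TP2 to TP3, with 0 of 23 called at TP3 against TP2 controls, where 7 had an unadjusted p below 0.05 by edgeR. Pancreatic acinar markers also fell at TP2 (7 of 7) and rose from TP2 to TP3 (6 of 7). The part of pancreatic RNA in the values of Derl3 and of the secretion genes was not tested. Of 11 receptors and ligands listed for survival signals, 10 were tested and 6 rose at TP2 against controls. These were led by Cd28 (3.68 ± 0.41, adjusted p = 8.84e-06), Cd27 (3.50 ± 0.76, adjusted p = 0.0013) and the receptors Tnfrsf13c (2.69 ± 0.49, adjusted p = 0.000337) and Tnfrsf13b (1.66 ± 0.36, adjusted p = 0.0014). At TP3 against TP2 controls 7 rose. All 5 T cell and all 5 B cell markers rose in both comparisons too. The part of T cells and B cells in the changes of this list was not tested.

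Markers of other cells moved in the same tumors, and in bulk RNA fewer cells of a type and less RNA per cell cannot be told apart. The shares of all genes called were 9.65% higher and 5.96% lower at TP1, and 14.8% and 9.61% at TP2. They were 14.2% and 10.2% at TP3 against TP2 controls, and 3.47% and 4.40% from TP2 to TP3 treated tumors. At TP2 against controls all 5 T cell markers rose, and their sum was 4.28 to 14.1 CPM in TP2 controls, 51.6 to 103 CPM in TP2 treated and 74.4 to 95.7 CPM in TP3 treated tumors. All 5 B cell markers, each also in the B cell identity list, rose likewise, with sums of 4.5 to 22.5, 79.5 to 228 and 242 to 331 CPM. Of 7 epithelial markers 6 were tested and all 6 fell at TP1, TP2 and TP3, from a sum of 1880 to 2892 CPM in TP2 controls to 304 to 583 CPM at TP2 and 204 to 323 CPM at TP3. The 4 adipocyte markers rose in each of these comparisons and again from TP2 to TP3, with sums of 0.807 to 5.71 CPM in TP2 controls, 66.9 to 471 CPM at TP2 and 901 to 1313 CPM at TP3. No marker of either list was at 0 in every tumor of any of these groups. Of 4 mesothelial markers 1 fell at TP2 and 3 fell at TP3, and of 4 tested plasmacytoid dendritic cell markers 3 rose at each. These lists moved with Jchain, Mzb1, Irf4, Prdm1 and Sdc1, and their part in those changes was not tested. The epithelial sum was already 324 to 631 CPM at TP1, where Sdc1 had its highest values of the model.

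**Figure D4:**
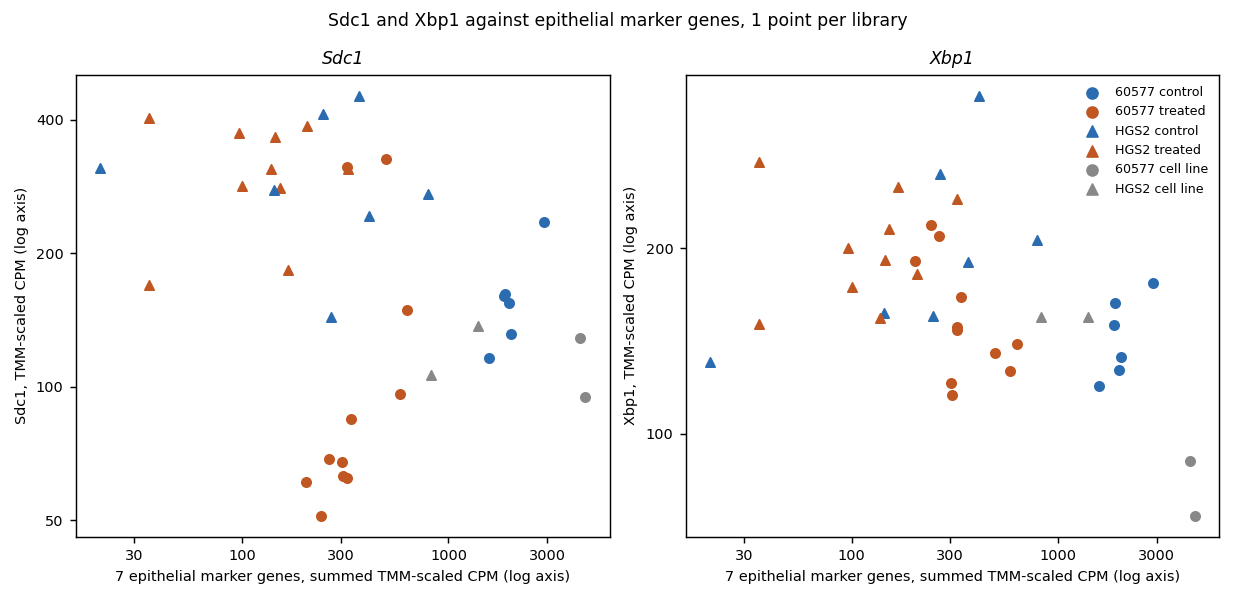
Sdc1 (left) and Xbp1 (right) in TMM-scaled CPM against the sum of 7 epithelial marker genes, both on log axes, 1 point per library, circles for 60577 and triangles for HGS2. In 60577 the TP1 treated tumors reached 326 CPM of Sdc1 at an epithelial sum of 324 to 631 CPM, and the HGS2 tumors held 143 to 454 CPM of Sdc1 at sums of 20.6 to 793 CPM.

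In HGS2 tumors the same genes were present but no treatment effect was detectable. Jchain was at 53.9, 193 and 58.9 CPM in TP1 controls, 171, 80.6 and 562 CPM in TP1 treated, and 23.0, 229, 401 and 295 CPM in TP2 controls. It was at 205, 3.26 and 437 CPM in TP2 treated tumors and at 783, 96.1, 16 and 215 CPM in TP3 treated tumors, where the first is the tumor kept out of the comparisons. Tumors of one group thus covered wide ranges, from 3.26 to 437 CPM in TP2 treated tumors, and the groups overlapped in each of the 5 comparisons. The change was 1.41 ± 1.3 at TP1, -0.14 ± 1.20 at TP2 and -1.10 ± 1.23 at TP3 against TP2 controls (adjusted p = 1.00, 0.98 and 1.00). With standard errors above 1 on the log2 scale, only large changes of Jchain were detectable in this model.

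Mzb1 in HGS2 ranged from 0.299 to 53.8 CPM, Irf4 from 1.43 to 40.4 CPM and Tnfrsf17 from 0 to 40 counts. The tumors low in 1 of these genes tended to be low in the others, since TP2 treated tumor 2 held 3.26 CPM of Jchain and 0.437 CPM of Mzb1, and TP3 treated tumor 3 held 16 and 0.299 CPM. Prdm1 did not share this pattern. It was at 20.9, 16 and 11.3 CPM in TP1 controls, 11.6, 34.6 and 22.6 CPM in TP1 treated, 8.99, 11.9, 52.0 and 18.9 CPM in TP2 controls, 26.8, 36.4 and 39.6 CPM in TP2 treated, and 29.3, 32.2, 44.5 and 19.3 CPM in TP3 treated tumors, and its change was 0.52 ± 0.57, 0.59 ± 0.52 and 0.50 ± 0.52 in the 3 comparisons with controls (adjusted p = 1.00, 0.78 and 1.00).

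Sdc1 stayed between 143 and 454 CPM in HGS2, with changes of 0.16 ± 0.37, 0.16 ± 0.34 and -0.08 ± 0.34 (adjusted p = 1.00, 0.92 and 1.00). Xbp1 stayed between 131 and 354 CPM, and its 2 highest controls, at 264 (TP1 control 3) and 354 CPM (TP2 control 2), were those with pancreatic RNA. The part of that RNA in the Xbp1 level was not tested. Over the 5 HGS2 comparisons 0 of the 6 tested genes were called by edgeR, limma-voom or DESeq2, 0 had an unadjusted p below 0.05 with any of the 3 tools, and edgeR called 0% of all 16241 genes, while DESeq2 called 1, 8 and 5 genes in the comparisons with controls and 1 and 105 between treated time points. Groups that did not overlap made up 5.20% of all genes at TP1, 13.1% at TP2 and 3.07% at TP3 against controls, and 5.26% and 17.2% for the later treated time points, and none of the 6 genes was among them. Leaving out the pancreatic libraries, chosen after seeing the data, left the counts at 0. Of the companion lists, none had a member called in these 5 comparisons, and at TP2 the largest values in the B cell identity list were Cr2 (-2.54 ± 1.98, adjusted p = 0.76) and Pax5 (-2.37 ± 1.72, adjusted p = 0.74).

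The models also differed in their untreated tumors. Dosing began on day 21 after injection for 60577 and on day 49 for HGS2. The age of the tumors thus differs with the model, and it cannot be told apart from line and strain here. Over the TP1 and TP2 controls, HGS2 was above 60577 in Mzb1 by 3.19 ± 0.88 (9.16-fold, n = 7 and 6; adjusted p = 0.0038), in Jchain by 2.86 ± 0.98 (7.27-fold; adjusted p = 0.017), in Irf4 by 1.87 ± 0.53 (3.66-fold; adjusted p = 0.0045) and in Prdm1 by 1.85 ± 0.34 (3.61-fold; adjusted p = 7.09e-05). Prdm1 did not overlap between the models' controls, a property of 23.0% of genes here, and the other 3 did. Sdc1 (0.92 ± 0.23, adjusted p = 0.0016) and Xbp1 (0.50 ± 0.17, adjusted p = 0.017) were higher within the fold limit. Thus 4 of 6 genes were called higher, against 13.2% of all genes higher, 8.81% lower and 22.0% in either direction. By limma-voom the Mzb1 call was lost (adjusted p = 0.069). Sdc1 was called as well without the pancreatic libraries (1.10), without HGS2 TP1 control tumor 3 (1.08) or without 60577 TP2 control tumor 2 (1.05), without 60577 TP2 control tumor 3 the Jchain difference was 3.57, and Tnfrsf17 in the fit without a filter differed by 3.33 ± 1.09 (adjusted p = 0.021). The immunoglobulin constant list moved with these genes (8 of 9 higher, median 3.99), as did all 7 pancreatic acinar markers and 5 of 5 macrophage markers, with sums of 992 to 2008 CPM in HGS2 and 335 to 821 CPM in 60577 controls, and 5 of 6 epithelial markers were lower. Their part in the values of the 6 genes was not tested.

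Whether the response to treatment itself differed between the models was tested as an interaction. At TP1 no gene of the 6 was called by edgeR, limma-voom or DESeq2, against 1.45% of all genes by edgeR (0.449% higher and 0.997% lower in HGS2), and none had an unadjusted p below 0.05. At TP2 1 of 6 was called, against 6.90% of all genes (3.68% higher and 3.21% lower in HGS2). The Sdc1 response was higher in HGS2 by 1.34 ± 0.43 (adjusted p = 0.047), set by 0.16 in HGS2 and -1.19 in 60577. That call sat at the threshold and was lost without any 1 of 10 of the 14 libraries of these groups (adjusted p from 0.053 to 0.17), with limma-voom, without the filter and with all 17 HGS2 tumors. The response in HGS2 minus that in 60577 was -2.63 ± 1.00 for Irf4 (adjusted p = 0.085; 0.037 by DESeq2), -2.45 ± 1.57 for Mzb1 (adjusted p = 0.30) and -1.06 ± 1.76 for Jchain (adjusted p = 0.72). Of the 11 tested B cell identity genes 6 had a lower response in HGS2 (median -3.71), a count that was 0 without HGS2 TP2 control tumor 3, HGS2 TP2 treated tumor 2 or 3, or 60577 TP2 control tumor 2, 1 without HGS2 TP2 treated tumor 1 or 60577 TP2 treated tumor 3 or 4, 2 without 60577 TP2 control tumor 3, and 1 by limma-voom.

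Per kilobase of exon, on medians over tumors, Jchain was the most abundant of the 7 in 60577 TP3 tumors at 126 CPM per kilobase, followed by Xbp1 at 61.7, Mzb1 at 18.8, Sdc1 at 16.2, Irf4 at 6.82, Prdm1 at 2.20 and Tnfrsf17 at 1.37. In 60577 TP2 controls the order was Xbp1 at 50.2, Sdc1 at 42.5, Jchain at 7.30, Mzb1 at 1.13, Prdm1 at 1.07, Irf4 at 0.888 and Tnfrsf17 at 0. Across the 12 groups, 60577 TP3 treated tumors ranked first by median CPM for Jchain (317), Mzb1 (22.8), Irf4 (33.5) and Tnfrsf17 (1.11). In each case the next groups overlapped with them, HGS2 TP2 controls for Jchain (23.0 to 401 CPM), Mzb1 (0.743 to 33.5) and Tnfrsf17 (0 to 0.643), and 60577 TP2 treated tumors for Irf4 (17.3 to 27.0). The first gap between neighbouring tumor groups in the Prdm1 order was that below 60577 TP3 treated tumors (10.2 to 12.8 CPM), above both control groups of that model (2.95 to 7.69). For Prdm1 and Sdc1 the highest median was that of HGS2 TP2 treated tumors (36.4 and 366 CPM), and for Xbp1 that of HGS2 TP3 treated tumors (246 CPM).

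**Figure D5:**
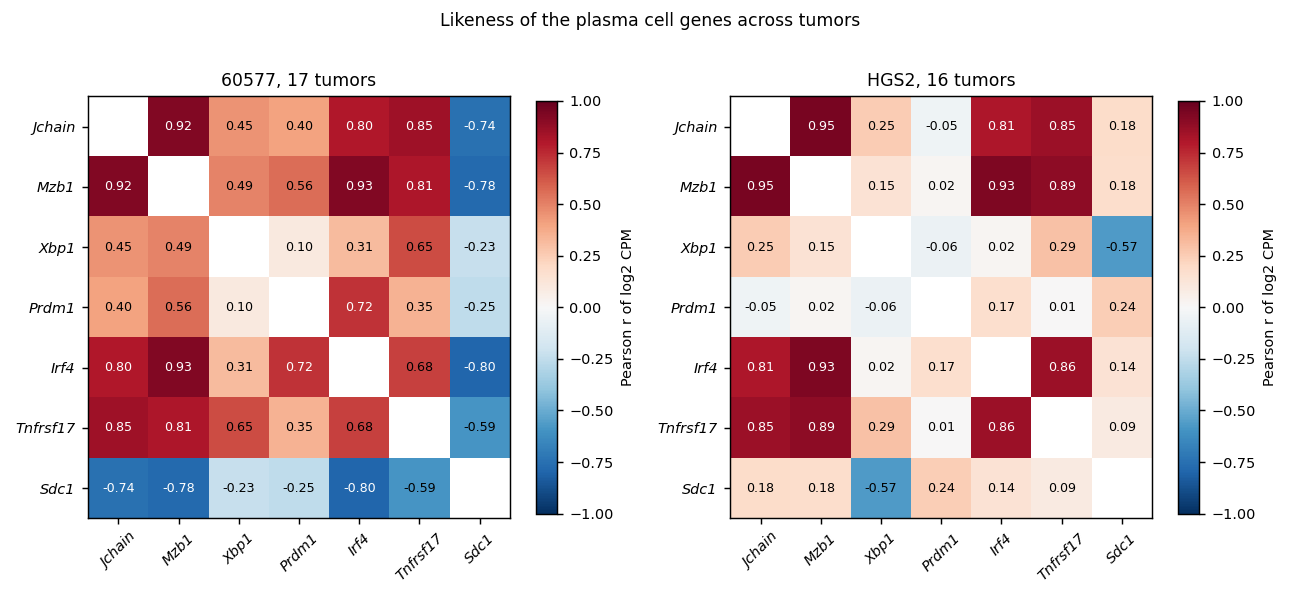
Pearson r of log2 CPM between each pair of the 7 genes over 17 tumors of 60577 (left) and 16 of HGS2 (right), red for positive and blue for negative. Jchain and Mzb1 had r = 0.92 and 0.95, Prdm1 and Jchain 0.40 and -0.05, and Sdc1 and Irf4 -0.80 and 0.14.

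The likeness of the genes across tumors was described by Pearson r of log2 CPM, over tumors that share treatment groups, cell type makeup and depth. Jchain and Mzb1 went together in both models (r = 0.92 over 17 tumors of 60577 and 0.95 over 16 of HGS2), and also within groups, after each group's mean was taken out (0.91 and 0.95). Mzb1 and Irf4 did so as well (0.93 and 0.93, and within groups 0.90 and 0.95). Prdm1 was near 0 with Jchain in HGS2 (-0.05) and at 0.40 in 60577. Sdc1 was at -0.74 with Jchain in 60577 and at 0.18 in HGS2, and Xbp1 was at 0.45 and 0.25. Among protein-coding genes outside the antigen receptor segments, the gene most like Mzb1 was Pou2af1 in both models (0.98 and 0.96), followed in 60577 by Slc2a4 (0.96), Slc24a3, Cd79a and Sult1a1, and in HGS2 by Jchain, Irf4, Cacna1h and Eaf2. Jchain was most like Fut8 (0.96), Abhd15, Slc43a1, Lpar4 and Limch1 in 60577 and Mzb1 (0.95), Pou2af1, Eaf2, Hmcn1 and Rarres2 in HGS2. Of the 20 genes of any kind most like Jchain, 6 were immunoglobulin genes in 60577 and 13 in HGS2, and for Mzb1 the counts were 1 and 11. For Irf4 the nearest were Sept1 (0.99), Ptprcap, Msc, Ms4a1 and Bmyc in 60577, and Cacna1h (0.96), Mzb1, Lax1, Fcrla and Cacna1e in HGS2, with 0 and 2 immunoglobulin genes among 20. Tnfrsf17 was nearest to Scarb1 (0.93), Pcx, A530016L24Rik and Chpt1 in 60577 and to Mzb1 (0.89), Pou2af1, Tmem45b, Irf4 and Jchain in HGS2, with 2 and 6 immunoglobulin genes among 20.

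The other 3 members had no immunoglobulin gene among their 20 nearest in either model. Prdm1 was nearest to Sema4d (0.98), Apobec1, Clec12a, Camk2a and Myo1f in 60577 and to Ttc7 (0.96), Shtn1, Slc37a2, Mitf and the osteoclast fusion gene Dcstamp in HGS2. Sdc1 was nearest to Timp1 (0.98), Spp1, Slc41a2, Fblim1 and Il1rap in 60577 and to Ak1 (0.90), Ext1, Syt12, Itgb5 and Pea15a in HGS2, where Ext1 encodes an enzyme that builds heparan sulfate chains. Xbp1 was nearest to Srp54a (0.89), Dnajb9, Utp11, Rgcc and Setd3 in 60577, of which Srp54a and Dnajb9 serve the secretory pathway, and to Tent5c (0.94), the amylase gene Amy1, Nupr1, Pcca and the acinar factor Bhlha15 in HGS2, whose 3 tumors with pancreatic RNA were among the points. Among Jchain, Mzb1, Irf4 and Tnfrsf17 r ran from 0.68 to 0.93 in 60577 and from 0.81 to 0.95 in HGS2. The r of Prdm1, Xbp1 and Sdc1 with these 4 ran from -0.80 to 0.72 in 60577, where Prdm1 with Irf4 (0.72) and Xbp1 with Tnfrsf17 (0.65) were highest, and from -0.05 to 0.29 in HGS2.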

How the data were processed

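RNA was sequenced from 34 omental tumors and 4 cell line libraries after depletion of ribosomal RNA. The authors trimmed reads with Trim Galore 0.6.5, aligned them with STAR 2.7.0f to mm10/GRCm38 and deposited RSEM expected counts per Ensembl gene. Expected counts are estimates and share reads between overlapping genes. They were rounded to whole numbers for the tests. Gene symbols and loci came from GENCODE M21.

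A gene entered the tests when 25% or more of the libraries reached 1 CPM (16241 genes in 33 tumors, 13742 in the cell lines). Each model was fitted with edgeR 4.0.16 (quasi-likelihood test, TMM scaling, two-sided) in R 4.3.3, with 1 term per group, and p was adjusted by the Benjamini-Hochberg method. Differences between models were interaction terms in a fit of both models. In each model TP2 and TP3 treated tumors were set against the same TP2 controls. The count tests were tested on simulated data. Alternatives were DESeq2 1.42.0 size factors and its Wald test, limma 3.58.1 voom, no filter, a replicate block, both models together, all 17 HGS2 tumors, and each library left out. Leaving out the libraries with pancreatic RNA was added after seeing the data. Members, gene lists and tests were chosen with earlier results of these data known. From each list up to 4 genes were named by the largest change among those called at TP2, or 2 where none was called. Members of short counts (Derl3 at TP2, and Ebf1, Pou2af1, Derl3, Eaf2, Dnajb9 and Manf between treated time points) were named after their values were seen. Some genes that these rules would name are not reported here. Likeness was Pearson r of log2 CPM. Floors of 3 counts cover counting error only. No pair of replicate libraries agreed within sampling noise (44 pairs).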

Additional observations from a re-analysis of the deposited data

Results flagged for a closer look

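Tnfrsf17 in 60577 TP3 treated tumor 2, at 0.365 CPM, stood apart below the other 3 tumors of its group, and its gap to the nearest took 0.898 of the group's range. Chance gives such a gap in about 1 in 20 groups. It was looked for in 28 cases, the 7 genes in each of 4 groups of 4 tumors. Genes measured in the same tumors are not independent cases. Jchain and Mzb1 were not at their lowest in this tumor. Irf4 was lowest there too, at 26.2 CPM beside 33.4 to 36.0 CPM in the other tumors of the group, but it was not flagged.

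The Sdc1 response at TP2 differed between the models by 1.34 on the log2 scale, HGS2 above 60577. The value comes from the interaction term and, as given above, its call was lost in most of the fits that left out a library.

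HGS2 TP3 treated tumor 1, outside the comparisons, held more of 4 of the genes than any HGS2 control. Jchain was at 783 CPM (highest control 401 CPM), Mzb1 at 53.8 CPM (33.5 CPM), Irf4 at 38.8 CPM (35.5 CPM) and Tnfrsf17 at 1.57 CPM (0.643 CPM). Its Xbp1, Prdm1 and Sdc1 levels were below the highest control.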

How the results depend on the processing

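Among 1200 member values under the alternatives 1156 kept their side of the threshold, 31 lost a call, 13 gained one and 0 called values reversed, while 79 values that were not called took the other sign. The number of members called kept within 1.5 times under 83 of 96 settings other than leaving out a library. At TP1 in 60577 (1 called) DESeq2's Wald test called 2. From TP2 to TP3 treated tumors (1 called) the fit without a filter, DESeq2 and limma-voom each called 2, and both models together called 0. From TP1 to TP2 treated tumors (2 called) both models together called 1. For the TP2 difference between models (1 called) DESeq2 called 2, and the fit without a filter, limma-voom and all 17 HGS2 tumors called 0. The cause was not tested. With 1 library left out, the counts were 1 to 2 at TP1, 1 to 4 at TP2, 4 to 5 at TP3 against controls, 1 to 3 from TP1 to TP2, 0 to 2 from TP2 to TP3, 0 to 1 for the TP2 difference, 4 to 5 between the models' controls and 0 to 0 elsewhere.

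Replicate numbers did not pair the tumors, since deviations of same-numbered tumors correlated from -0.42 to 0.32 in 60577 and from -0.49 to 0.37 in HGS2. With the replicate block 1 member was called from TP1 to TP2 treated tumors, where Irf4 was no longer called (adjusted p = 0.097), 0 for the TP2 difference, and 1 between controls, where Jchain (adjusted p = 0.40), Mzb1 (0.13) and Irf4 (0.20) were no longer called.

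Over all genes, both models together called 1605 instead of 2535 at TP1, 271 instead of 977 from TP1 to TP2 (570 with the block) and 803 instead of 1278 from TP2 to TP3. Between controls the fit without a filter called 5377 instead of 3577, and in the cell lines 3849 instead of 2189. For the TP1 difference (235) DESeq2 called 721, the fit without a filter 111, the block 133 and all 17 HGS2 tumors 154, and for the TP2 difference (1120) the block called 618. Counts near 0 limited Tnfrsf17, and wide spread between tumors limited Jchain and Mzb1 in HGS2.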
